A study of Rattus norvegicus with 10 samples.

Results

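The transcripts described here are 9 genes that mark spiny projection neurons of the striatum and of the striatum-like parts of the amygdala, namely Adora2a, Adcy5, Rgs9, Pde1b, Pde10a, Ppp1r1b, Rasd2, Rarb and Foxp1. They were chosen by name from a table of 32623 rat genes, and each name stood beside 1 identifier. Their transcripts were sequenced in punches of the supraoptic nucleus, the paired hypothalamic nucleus whose magnocellular neurons release vasopressin and oxytocin. The animals were male Sprague-Dawley rats, an outbred strain, of 250 to 300 g. Each rat had received an adeno-associated virus that carried a short hairpin RNA directed at Opn3, the gene of the light-sensitive receptor opsin 3, in the nucleus of one side (shOpn3, 5 samples) and a virus with a hairpin of no target in the other (shControl, 5 samples). Every nucleus had thus been injected, and no group without virus was analysed here. Neither the promoter that drove the hairpins nor the number of infected cells was given in the sources used here. A 1 mm punch was taken 2 weeks later and extracted by itself, so that any tissue around the nucleus inside the punch was measured with it.

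Spiny projection neurons are the inhibitory output cells of the striatum, and cells of the same kind are found in the central amygdala and its intercalated clusters. Dopamine acts on them through D1 receptors, which raise cyclic AMP, or through D2 receptors, which lower it, and the adenosine receptor of the gene Adora2a raises cyclic AMP in the cells that carry D2 receptors. Adenylyl cyclase 5 makes the cyclic AMP, phosphodiesterases break it down, and protein kinase A passes the signal to DARPP-32, the product of Ppp1r1b. None of these 9 genes is restricted to spiny neurons, and several are also used by other neurons, glia, vessels or immune cells.

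RefSeq promoter windows of assembly GRCr8, which run from 250 bases before to 50 bases after a gene's start, were matched by symbol for 6 of the 9 members. The window of Rgs9 is shown because this was the only one of the 6 that was called between the groups, and that of Rarb because it holds a textbook element. Capitals mark a CCAAT box (CCAAT, either strand) in Rgs9 and a retinoic acid response element in Rarb, which was searched as GTTCA followed by any 6 bases and again GTTCA on either strand. Both windows are written 5′ to 3′ along the gene. Rgs9 lies on the minus strand at chr10:94770338-94770637, and Rarb on the plus strand at chr15:11336142-11336441.
Rgs9: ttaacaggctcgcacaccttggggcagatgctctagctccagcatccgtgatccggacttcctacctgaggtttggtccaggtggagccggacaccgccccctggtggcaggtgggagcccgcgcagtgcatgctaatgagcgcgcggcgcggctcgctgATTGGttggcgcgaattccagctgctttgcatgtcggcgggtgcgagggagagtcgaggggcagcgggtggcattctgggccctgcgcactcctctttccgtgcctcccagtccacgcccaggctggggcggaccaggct
Rarb: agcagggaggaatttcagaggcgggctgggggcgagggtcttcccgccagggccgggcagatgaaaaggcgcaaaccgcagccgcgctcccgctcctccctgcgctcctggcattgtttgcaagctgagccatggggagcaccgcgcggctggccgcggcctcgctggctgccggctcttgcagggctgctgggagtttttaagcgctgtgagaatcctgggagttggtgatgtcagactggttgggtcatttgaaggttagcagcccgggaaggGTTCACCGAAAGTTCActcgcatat
The element of Rarb, through which retinoic acid receptors act on this gene, begins 26 bases after the annotated start, and 0.418% of all 33469 windows of this length held such a match. A CCAAT box was found in 37.5% of all windows, and the one of Rgs9 begins at base -90 from the start. Neither window held the cyclic AMP response element TGACGTCA or its shorter core TGACG, which is contained in it. The core stood in 21.2% of all windows and, among the members, in 1 of the 2 windows listed for Pde10a, with 2 matches. The matches describe letters and not bound sites.

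Depth was alike in all samples, with 33158341 to 39958578 reads recovered per sample. Opn3, the target, had a mean of 704 ± 277 normalized counts in the shControl and 188 ± 59.7 in the shOpn3 samples (SD, n = 5 each), and shControl replicate 5 (261) lay below the highest shOpn3 sample (290). Of 15597 genes tested across the groups, 18.8% were called (limma adjusted p under 0.05), 1618 higher and 1322 lower in shOpn3. With all samples scaled to the same total, the split was 2139 higher and 835 lower.

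Of the 9 members, 3 were called between the groups. Pde1b stood at 131% of its shControl mean in shOpn3, while Rgs9 stood at 65.7% and Adora2a at 65.6%. The other 6 members did not pass the test. That is 1 member higher and 2 lower, against 10.4% and 8.48% of all genes tested, and the median log2 fold change of the members was -0.13 against -0.02 over all genes. All 9 members passed the filter on low values. With a replicate block, limma also called 3 members, where 30.3% of all genes were called. Without shControl replicate 5, whose Opn3 level lay in the shOpn3 range, 3 members were called, again 1 higher and 2 lower. In a bulk sample, fewer cells of a type and less RNA per cell cannot be told apart.

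**Figure D1:**
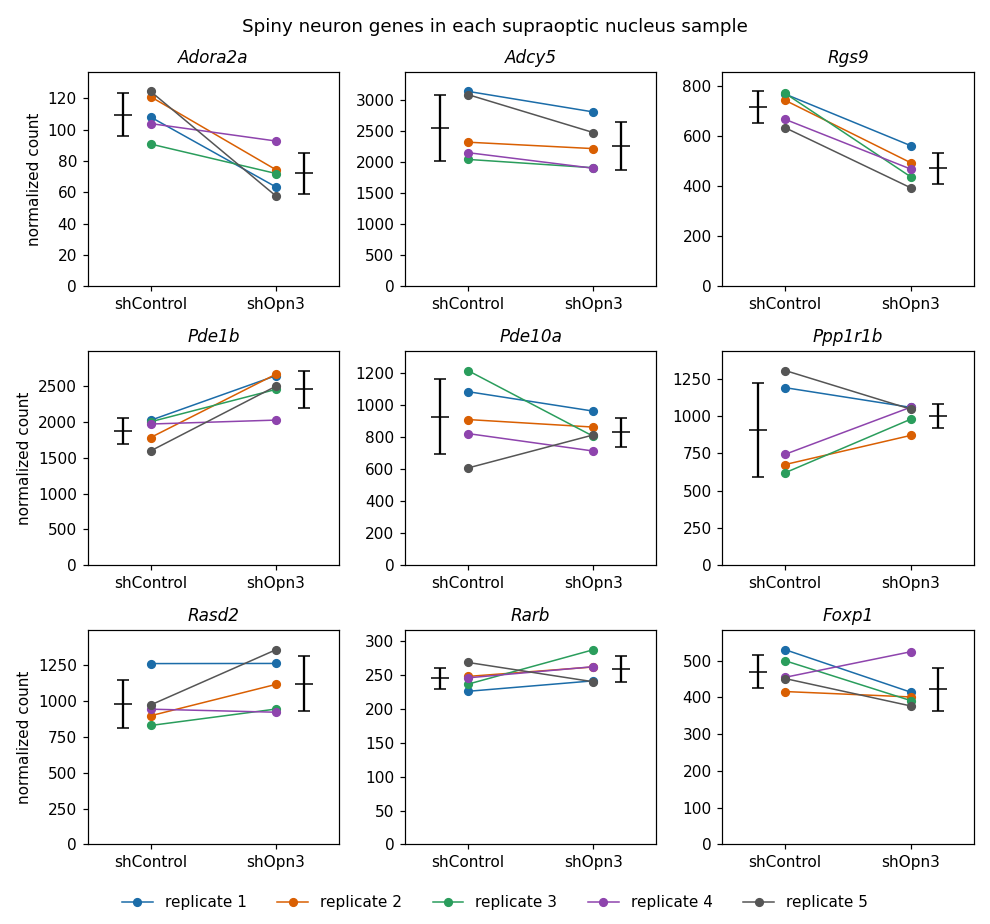
Normalized counts (vertical axes, from 0) of the 9 members in each sample of the 2 groups, with a line joining samples of the same replicate number and black bars for mean ± SD (n = 5). The groups are separate for Rgs9 and Pde1b, and shControl replicates 1 and 5 stand above the other shControl samples for Ppp1r1b and Adcy5.

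The receptor among the members is Adora2a, a receptor for adenosine (ENSRNOG00000001302). It had 108, 121, 90.8, 104 and 124 normalized counts in shControl replicates 1 to 5 and 63.3, 74.3, 72.0, 92.7 and 57.5 in shOpn3 replicates 1 to 5. Every shOpn3 sample was low except replicate 4, which lay above shControl replicate 3, so that the groups overlapped. Adora2a fell by 0.61 ± 0.159 on the log2 scale (SE; adjusted p = 0.0183 in limma; two-sided exact permutation p = 0.0159). All 5 same-numbered pairs had the lower value in shOpn3, at 46.2% to 89.2% of the paired control (exact two-sided sign-flip p = 0.0625). This was the member with the fewest reads, 56 to 119 per sample. Its call was lost without shControl replicate 2 (log2 fold change -0.57, adjusted p = 0.0502 in limma) and without both samples of replicate 1 (-0.57, 0.0551), 2 (-0.59, 0.0778) or 5 (-0.49, 0.0944).

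Adcy5, adenylyl cyclase 5 and the main cyclic AMP source of spiny neurons (ENSRNOG00000002229), had 3145, 2324, 2046, 2155 and 3093 normalized counts in shControl replicates 1 to 5. In shOpn3 replicates 1 to 5 it had 2812, 2220, 1911, 1903 and 2479. Replicates 1 and 5 were the highest samples in both groups, and the groups overlapped. The log2 difference was -0.17 (95% interval -0.49 to 0.16; adjusted p = 0.483 in limma). All 5 pairs nevertheless had the lower value in shOpn3, by 0.07 to 0.32 on the log2 scale, and the exact two-sided sign-flip test gave p = 0.0625, the smallest that 5 pairs allow. Over all genes tested, 39.4% had 1 direction in all 5 pairs, and 4 of the 9 members did. With the replicate number as a block, Adcy5 was not called by limma (adjusted p = 0.0556) and was called by the edgeR quasi-likelihood test (adjusted p = 0.0460).

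Rgs9, which speeds the switching-off of G proteins downstream of dopamine and opioid receptors (ENSRNOG00000003800), was lower in every shOpn3 sample. It had 769, 744, 771, 668 and 634 normalized counts in shControl replicates 1 to 5 and 562, 494, 437, 468 and 393 in shOpn3 replicates 1 to 5. The lowest shControl sample lay above the highest shOpn3 sample, a separation that 15.3% of all genes tested and 2 of the 9 members showed. Rgs9 fell by 0.61 ± 0.107 on the log2 scale (SE; adjusted p = 0.00223 in limma; two-sided exact permutation p = 0.00794, the smallest that 5 against 5 samples allow). The value in shOpn3 was 56.7% to 73.1% of the same-numbered control (exact two-sided sign-flip p = 0.0625, as for Adcy5). Its direction and its call held in all 28 alternative fits.

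The partners of Rgs9 did not share one direction. Rgs7bp, which anchors this G protein regulator at the membrane, rose by 0.91 ± 0.143 on the log2 scale (SE; adjusted p = 0.00117 in limma), from 270 ± 47.7 to 508 ± 86.0 normalized counts (mean ± SD, n = 5 each). Gnb5, the G protein beta subunit bound to Rgs9, stood at 1547 ± 114 and 1293 ± 160 (mean ± SD, n = 5 each) and was not called (log2 fold change -0.26; adjusted p = 0.0744 in limma). With the replicate number as a block it was called lower (adjusted p = 0.0290 in limma).

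The 2 phosphodiesterases among the members had different outcomes. Pde1b, which calcium and calmodulin activate (ENSRNOG00000036828), had 2024, 1783, 2003, 1972 and 1596 normalized counts in shControl replicates 1 to 5 and 2648, 2669, 2456, 2027 and 2501 in shOpn3 replicates 1 to 5. All shOpn3 samples lay above all shControl samples, replicate 4 by a narrow margin. Pde1b rose by 0.39 ± 0.0954 on the log2 scale (SE; adjusted p = 0.0135 in limma; two-sided exact permutation p = 0.00794). It was higher in 5 of 5 pairs, by 0.04 in replicate 4 and by 0.29 to 0.65 in the others. The exact two-sided sign-flip test over the pairs gave p = 0.0625. Without both samples of replicate 2 or of replicate 5 the call was lost (log2 fold change 0.34 and 0.33, adjusted p = 0.0800 and 0.0595 in limma).

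Pde10a, a phosphodiesterase that is most abundant in spiny neurons (ENSRNOG00000011310), had 1085, 911, 1217, 823 and 608 normalized counts in shControl replicates 1 to 5. In shOpn3 replicates 1 to 5 it had 963, 863, 806, 714 and 815, all within the shControl range. The log2 difference was -0.13 (95% interval -0.48 to 0.23; adjusted p = 0.644 in limma). It was lower in 4 pairs and, at 134% of its control, higher in replicate 5, whose shControl sample was the lowest of all 10. The log2 ratio of Pde1b to Pde10a within a sample ran from 0.72 to 1.39 in shControl and from 1.46 to 1.63 in shOpn3. That of Pde1b to Rgs9 ran from 1.26 to 1.56 and from 2.11 to 2.67. These ratios were picked after the values had been seen, and the difference between members was not tested.

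Ppp1r1b encodes DARPP-32, which inhibits protein phosphatase 1 once protein kinase A has phosphorylated it (ENSRNOG00000028404). It had 1191, 676, 620, 744 and 1306 normalized counts in shControl replicates 1 to 5 and 1059, 871, 979, 1060 and 1047 in shOpn3 replicates 1 to 5. The shControl samples fell apart, with replicates 1 and 5 above and replicates 2, 3 and 4 below all shOpn3 samples. The coefficient of variation was 34.9% in shControl and 8.08% in shOpn3. Over all samples the log2 difference was 0.21 (95% interval -0.21 to 0.63; adjusted p = 0.497 in limma). Without shControl replicates 1 and 5, left out after their values had been seen, it was 0.56 (adjusted p = 0.00286 in limma). Without both samples of these replicates it was 0.51 (adjusted p = 0.0126 in limma). These were its highest shControl samples, so that leaving them out of shControl alone raises the difference by construction. In limma-voom with sample quality weights it was 0.47 (adjusted p = 0.0130).

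Summed markers of other cells moved with that split of the shControl samples. The summed normalized counts of 8 oligodendrocyte genes were 967892 and 1246220 in shControl replicates 1 and 5 and 731349 to 792528 in the other 3, and those of 9 amygdala neuron genes were 8173 and 8099 against 6631 to 7140. The summed receptors of spiny neurons went the other way, at 4172 and 3145 against 5132 to 5644. So did the sum of 3 genes of inhibitory neurons (23168 and 17402 against 25851 to 28513). Single genes were mixed. Cnr1 (3074 and 2148 against 3967 to 4519), Drd2 and Oprm1 were lower in replicates 1 and 5. Drd1 (314 and 394 against 246 to 282) and Chrm4 (111 and 82.3 against 43.9 to 71.2) were higher, and Drd3, Gpr6 and Gpr52 did neither. Of the inhibitory neuron genes, only Gad2 was lower in both replicates (14542 and 10564 against 18283 to 19470). The summed astrocyte genes (225316 and 247879 against 197337 to 204238) and microglial genes (11499 and 11492 against 8502 to 10231) were higher in replicates 1 and 5. Of the astrocyte genes, only Gfap and Aldh1l1 were higher in both, Slc1a3 was lower (44316 and 44092 against 48568 to 51431), and the others were mixed. Of the microglial genes, Itgam, Tyrobp, Cx3cr1 and Csf1r were higher in both, and the others were mixed. The mitochondrial share of the reads was lower in replicates 1 and 5 (7.58% and 8.33% against 9.46% to 11.5%). The part of these differences in the values of Ppp1r1b and Adcy5 was not tested.

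Rasd2 encodes Rhes, a small GTP-binding protein of striatal neurons (ENSRNOG00000014761). It had 1263, 898, 831, 945 and 974 normalized counts in shControl replicates 1 to 5 and 1264, 1118, 946, 923 and 1360 in shOpn3 replicates 1 to 5. The groups overlapped over most of their range, and replicate 1 was high in both. The log2 difference was 0.19 (95% interval -0.10 to 0.49; adjusted p = 0.369 in limma).

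The transcription factors among the members are Rarb and Foxp1, both needed for spiny neurons to develop. Rarb, a retinoic acid receptor (ENSRNOG00000024061), varied least, with 226, 248, 237, 246 and 269 normalized counts in shControl replicates 1 to 5 and 242, 262, 288, 263 and 240 in shOpn3 replicates 1 to 5. All 10 samples lay close together, and the log2 difference was 0.08 (95% interval -0.13 to 0.29; adjusted p = 0.631 in limma). Foxp1, a forkhead repressor (ENSRNOG00000009184), had 530, 416, 500.0, 455 and 452 normalized counts in shControl replicates 1 to 5. In shOpn3 replicates 1 to 5 it had 414, 401, 392, 524 and 377. It was low in shOpn3 except in replicate 4, and the log2 difference was -0.16 (95% interval -0.40 to 0.08; adjusted p = 0.344 in limma).

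**Figure D2:**
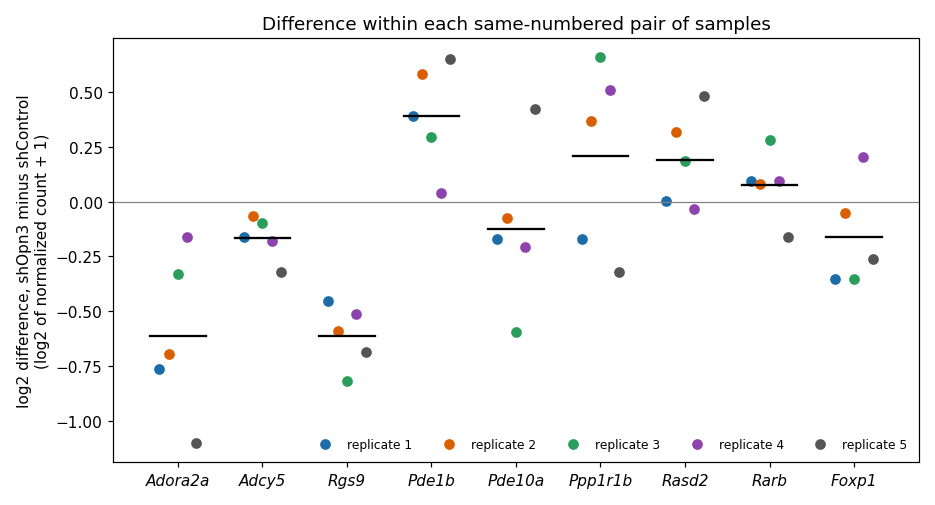
Log2 difference of shOpn3 minus shControl (vertical axis, log2 of normalized count + 1) in each of the 5 same-numbered pairs for the 9 members, with colours for the replicate number and black lines for the mean of the pairs. All 5 points lie below 0 for Adora2a, Adcy5 and Rgs9 and above 0 for Pde1b, while those of Ppp1r1b lie on both sides.

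The tissue label and the name of the gene group were checked against other markers. Avp and Oxt were present in every sample, and so were the receptors Drd1 and Drd2 of spiny neurons. Ido1, enriched in the striatum, was listed at 0 in all samples, and Sp9 and Kcnip2 were too low to be tested. The members differed in direction, and no value here ties them to 1 cell type of the punches.

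Among 8 receptors known from spiny neurons, 2 were higher in shOpn3, 0 were lower and 6 were not called, with a median log2 fold change of 0.52. Of all genes tested, 10.4% were higher and 8.48% lower. With the replicate number as a block, where 30.3% of all genes were called, 3 were higher, with Gpr52 added (adjusted p = 0.0322 in limma). Gpr52 was also called without the block by edgeR (adjusted p = 0.0393), DESeq2 (0.00951) and limma-voom with sample quality weights (0.0266), and in limma with all samples scaled to the same total (0.0364) or without shOpn3 replicate 4 (0.00887). Drd1, the D1 dopamine receptor, had 314, 266, 282, 246 and 394 normalized counts in shControl replicates 1 to 5 and 605, 567, 637, 489 and 611 in shOpn3 replicates 1 to 5. No values overlapped, and Drd1 rose by 0.97 ± 0.131 on the log2 scale (SE; adjusted p = 0.000602 in limma). Chrm4, the M4 acetylcholine receptor, rose by 1.14 ± 0.243 on the log2 scale (SE; adjusted p = 0.00650 in limma).

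Drd2, the D2 dopamine receptor that shares its cells with Adora2a, had 185, 270, 270, 215 and 111 normalized counts in shControl replicates 1 to 5. In shOpn3 replicates 1 to 5 it had 198, 183, 149, 132 and 257. Replicate 5 held the lowest shControl value and the highest shOpn3 value, and the log2 difference was -0.16 ± 0.250 (SE; adjusted p = 0.703 in limma). Without both samples of replicates 1 and 5, left out after their values had been seen, it was -0.70 (adjusted p = 0.0185 in limma). These held its lowest shControl and its highest shOpn3 values, so that leaving them out enlarges the fall by construction. The log2 ratio of Drd1 to Drd2 within a sample ran from -0.02 to 1.82 in shControl and from 1.25 to 2.08 in shOpn3, so that the groups overlapped.

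Of the 3 peptides of spiny neurons, Pdyn was lower, as were 8.48% of all genes tested, and the other 2 were not called. The median log2 fold change was -0.42. Pdyn, the precursor of dynorphin, is also made by magnocellular vasopressin neurons, and it fell from 17068 ± 4642 to 6635 ± 3042 normalized counts (mean ± SD, n = 5 each), a log2 difference of -1.44 ± 0.319 (SE; adjusted p = 0.00802 in limma). Penk, the enkephalin precursor, stood at 3377 ± 1308 and 3248 ± 366 (mean ± SD, n = 5 each), a log2 difference of 0.01 (adjusted p = 0.977 in limma). Tac1, the substance P precursor, stood at 1415 ± 596 and 985 ± 167 (mean ± SD, n = 5 each), a log2 difference of -0.42 (adjusted p = 0.314 in limma). Without shControl replicates 1 and 5, left out after their values had been seen, the value was -0.91 (adjusted p = 0.00168 in limma). Without both samples of these replicates it was -0.74 (adjusted p = 0.00256 in limma). These were its lowest shControl samples, so that leaving them out of shControl alone enlarges the fall by construction. In limma-voom with sample quality weights Tac1 was called lower over all samples (-0.84, adjusted p = 0.00532).

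Of 10 transcription factors, 9 were tested, 2 were higher and 2 lower, against 10.4% and 8.48% of all genes tested. Their median log2 fold change was 0.05. Bcl11b, a factor needed for spiny neurons to mature, rose from 172 ± 32.8 to 389 ± 105 normalized counts (mean ± SD, n = 5 each), a log2 difference of 1.14 ± 0.211 (SE; adjusted p = 0.00301 in limma). Isl1, which is used by D1 receptor cells and also by hypothalamic neurons, fell by 1.01 ± 0.166 on the log2 scale (SE; adjusted p = 0.00152 in limma), and Zfp503 fell by 0.73 ± 0.144 (SE; adjusted p = 0.00422 in limma). The other higher factor was Meis2, a homeodomain protein, with a log2 difference of 0.86 ± 0.198 (SE; adjusted p = 0.00951 in limma), which was 0.52 (adjusted p = 0.106 in limma) without both samples of replicates 1 and 5.

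Of 12 signalling partners of the members (median log2 fold change 0.27), 3 were higher and 0 lower, against 5 higher and 1 lower under the replicate block, where 30.3% rather than 18.8% of all genes were called. Arpp21, like DARPP-32 a target of protein kinase A in spiny neurons, rose from 995 ± 590 to 3858 ± 926 normalized counts (mean ± SD, n = 5 each), a log2 difference of 2.12 ± 0.342 (SE; adjusted p = 0.00140 in limma). As for Ppp1r1b, shControl replicates 1 and 5 were its highest shControl samples, at 1461 and 1787, but all shOpn3 samples lay above them. Prkar2b, a regulatory subunit of protein kinase A, rose by 0.52 ± 0.146 (SE; adjusted p = 0.0263 in limma). That call was lost without shControl replicate 1, shOpn3 replicate 2 or shOpn3 replicate 3 (adjusted p = 0.0587, 0.0614 and 0.0722 in limma), and without both samples of replicate 1, 2 or 5 (0.0590, 0.0674 and 0.0818). It was also lost without shControl replicates 1 and 5, where the log2 difference was 0.28 (adjusted p = 0.0707 in limma), and without both samples of these replicates (0.35, 0.0547).

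Of 12 other genes enriched in the striatum, 10 were tested (median log2 fold change 0.21) and 3 were higher, namely Ano3, Actn2 and Strip2, with 0 lower. With the replicate number as a block, at the same 30.3% of all genes, 4 were higher and 2 lower. Ano3, a membrane protein of the anoctamin family, rose by 2.21 ± 0.186 on the log2 scale (SE; adjusted p = 7.04e-05 in limma), Actn2, an actin cross-linker of dendritic spines, by 1.06 ± 0.197 (SE; adjusted p = 0.00299 in limma) and Strip2 by 0.54 ± 0.140 (SE; adjusted p = 0.0182 in limma). The call of Strip2 was lost without shOpn3 replicate 3 or 5 (adjusted p = 0.0551 and 0.0511 in limma) and without both samples of replicate 2, 3, 4 or 5 (0.0719 to 0.0893). Of 9 genes of amygdala neurons (median log2 fold change 0.31), 1 was higher and 0 lower, and 5 were higher with the block, which called 30.3% of all genes against 18.8% without it. Prkcd, a kinase that marks a class of central amygdala cells and is also found in other cells, rose from 822 ± 111 to 1660 ± 413 normalized counts (mean ± SD, n = 5 each), a log2 difference of 0.99 ± 0.161 (SE; adjusted p = 0.00150 in limma).

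**Figure D3:**
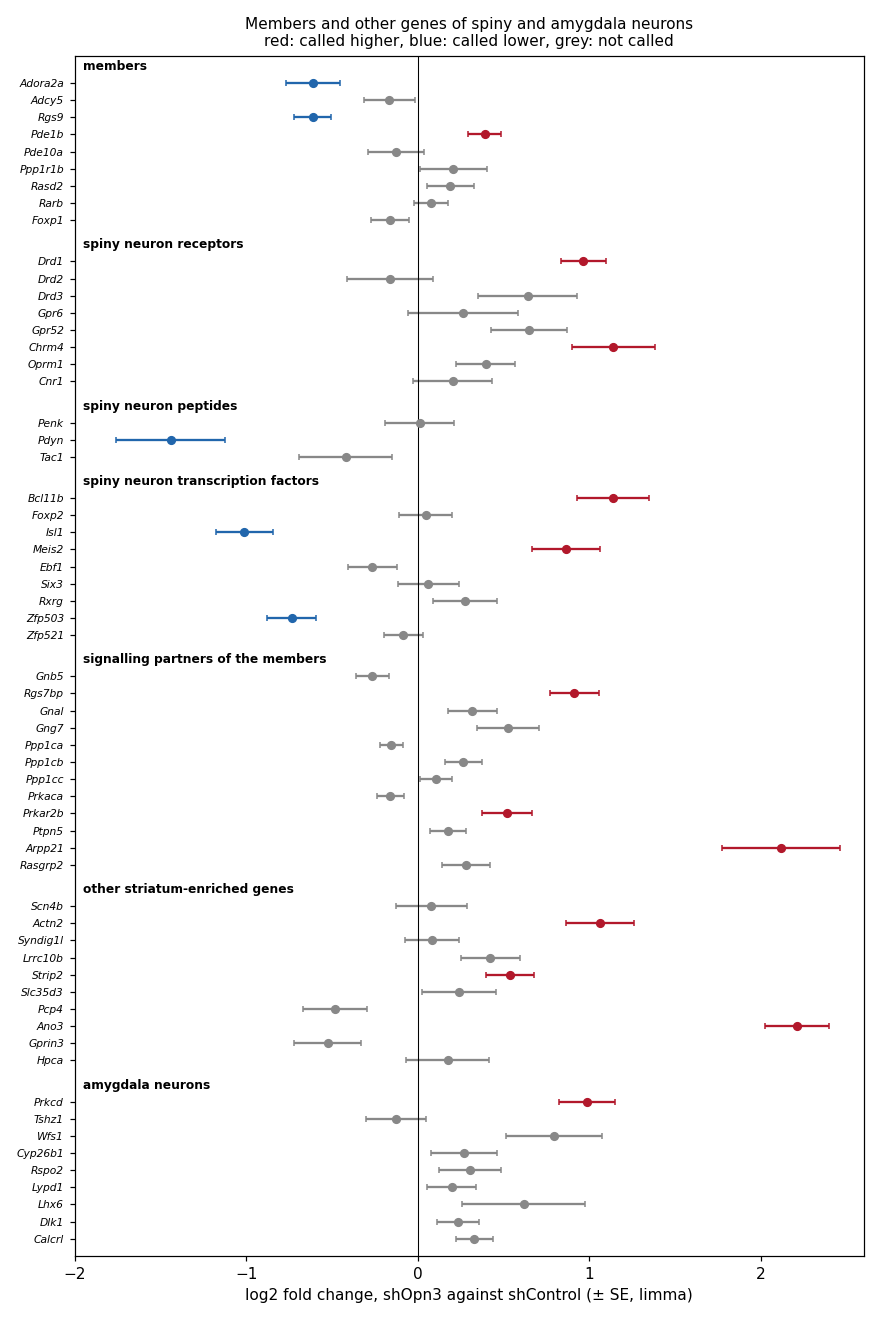
Log2 fold change of shOpn3 against shControl with its SE (horizontal axis) for the 9 members and for the tested genes of 6 lists of spiny and amygdala neurons, in red where called higher, in blue where called lower and in grey where not called. The members run from -0.61 to 0.39, and several receptors, partners and striatum-enriched genes lie further to the right.

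Close relatives of the members were also mixed, with 1 of 11 tested higher and 3 lower, against 10.4% and 8.48% of all genes tested. Their median log2 fold change was -0.14. Pde1a, a sister enzyme of Pde1b, rose by 0.59 ± 0.107 on the log2 scale (SE; adjusted p = 0.00275 in limma), whereas Pde1c fell by 0.56 ± 0.0883 (SE; adjusted p = 0.00116 in limma). Rasd1, the nearest relative of Rasd2, fell from 708 ± 77.9 to 407 ± 105 normalized counts (mean ± SD, n = 5 each), a log2 difference of -0.82 ± 0.153 (SE; adjusted p = 0.00304 in limma). Foxp4, a relative of Foxp1, was lower with a log2 difference of -0.48 ± 0.154 (SE; adjusted p = 0.0477 in limma) and in 5 of 5 pairs. That call was lost without shControl replicate 1, 2, 4 or 5, without shOpn3 replicate 2, 3, 4 or 5 (for shOpn3 replicate 3, adjusted p = 0.125 in limma), and with all samples scaled to the same total (0.114). It was also lost without both samples of replicate 2, 3, 4 or 5 (adjusted p = 0.0994 to 0.146 in limma), without shControl replicates 1 and 5 (0.139), with no filter on low values (0.0588) and in the edgeR quasi-likelihood test (0.0530). With the replicate number as a block, where 30.3% of all genes were called, 4 relatives were lower, with Adora1 added (adjusted p = 0.0260 in limma).

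Cell types that a punch could hold besides spiny neurons differed between the groups. The counts below stand against 10.4% of all genes tested called higher and 8.48% called lower. Of 7 magnocellular genes 7 were lower, and their summed normalized counts were 56173 to 163995 in shControl and 9814 to 33247 in shOpn3. Of 8 oligodendrocyte genes 8 were lower (731349 to 1246220 and 249044 to 470895), and of 8 microglial genes 7 were higher (8502 to 11499 and 15882 to 31303). Of 6 astrocyte genes 3 were higher (197337 to 247879 and 247517 to 376296). Of 8 genes of all neurons 2 were higher and 2 lower, and their sums overlapped (79524 to 110807 and 80816 to 129816). With the replicate number as a block, Tubb3 was added to the lower neuronal genes (adjusted p = 0.00850 in limma) and Tmem119 to the higher microglial genes (adjusted p = 0.0386 in limma), the latter also called by DESeq2 without the block (adjusted p = 0.0143). The neuronal genes were mixed, with a median log2 fold change of 0.10. Rbfox3 had 0.62, while Elavl4, Uchl1, Tubb3 and Stmn2 had -0.57, -0.49, -0.38 and -0.17. The call of Rbfox3 was lost without both samples of replicate 2 (adjusted p = 0.0566 in limma). That of Elavl4 was lost without shControl replicate 2, 3 or 4, shOpn3 replicate 3, 4 or 5, or both samples of replicate 3 (0.169) or 4 (0.149). That of Uchl1 was lost with quantile normalization (0.0513), without shControl replicate 1, shOpn3 replicate 3 or 4, or both samples of replicate 3 (0.104) or 4. Snap25, Syt1 and Syn1 had log2 differences of 0.41, 0.37 and 0.41 (adjusted p = 0.0513, 0.170 and 0.0412 in limma), beside 0.39 for Pde1b. Of these, the call of Syn1 was lost without shControl replicate 1, 2, 4 or 5 or shOpn3 replicate 1, 2, 3 or 5 (adjusted p = 0.0580 to 0.0929 in limma), Snap25 was called by DESeq2 (adjusted p = 0.0187), and both Snap25 and Syt1 were called without shOpn3 replicate 4 (adjusted p = 0.0290 and 0.0246 in limma). No gene of these lists was at 0. The summed members overlapped as well, with 8112 to 10340 and 7976 to 10028 normalized counts. The part of these cell types in the differences of Adora2a, Rgs9 and Pde1b was not tested.

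**Figure D4:**
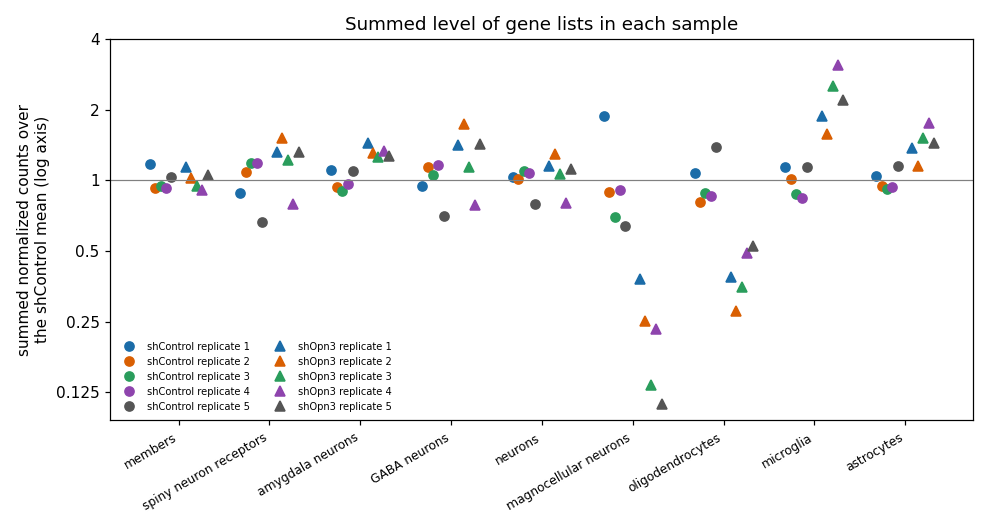
Summed normalized counts of 9 gene lists in each sample, divided by the shControl mean of the list (log axis), with circles for shControl, triangles for shOpn3 and colours for the replicate number. The members stay near 1 in both groups, while the magnocellular and oligodendrocyte genes are low and the microglial genes high in every shOpn3 sample.

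After the mean of each group had been subtracted, the log2 values of the members varied together only in part across the 10 samples, which come from shared animals. This is a description, with no test. Adcy5 and Rasd2 were the most alike (Pearson r = 0.84), followed by Pde1b and Pde10a (0.78) and by Adcy5 and Ppp1r1b (0.76), while Adora2a and Pde1b were the most opposed (-0.76). Over all genes tested, no member was among the 3 genes most like another member, and the r of these genes ran from 0.86 to 0.99. Those most like Pde1b were RGD1565498, Atp6v1g2 and Stmn2 (r = 0.98, 0.96 and 0.95), those most like Rgs9 were Mettl1, Diaph3 and Dnah8 (0.95, 0.94 and 0.94), and those most like Adcy5 were Tshz2, Elavl3 and Dscaml1 (0.99 each). Summed gene lists were treated the same way, and not all are given here. Such a sum follows its most abundant genes. In shControl replicate 1, Cnr1 held 3074 of the 4172 counts of the spiny neuron receptors, and Ppp1cb 10006 of the 38679 of the signalling partners. Pde1b varied with the sums of the genes of all neurons (r = 0.95) and of the spiny neuron receptors (0.85). It also varied with the genes of inhibitory neurons (0.84) and the other striatum-enriched genes (0.82), and against those of astrocytes (-0.79) and microglia (-0.75). Rgs9 varied with the magnocellular genes (0.79), and Adora2a against the genes of all neurons and the spiny neuron receptors (-0.70 each). Adcy5 varied with the close relatives of the members (0.90) and the amygdala neuron genes (0.84), and against the endothelial genes (-0.92). Ppp1r1b varied with the amygdala neuron genes (0.86) and against the signalling partners (-0.78) and the spiny neuron receptors (-0.73). The part of these cells in the values of the members was not tested.

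The authors' deposited table listed 21.3% of its genes with an adjusted p under 0.05, and of the members the same 3. Its log2 fold changes were -0.61 for Rgs9 (adjusted p = 2.89e-06), 0.39 for Pde1b (adjusted p = 0.00181) and -0.61 for Adora2a (adjusted p = 0.00312), each from the authors' deposited table.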

How the data were processed

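RNA from 10 supraoptic nucleus punches (5 shControl, 5 shOpn3) was sequenced, and the authors deposited 1 table of all genes. Per the submitters' processing notes, FastQC, STAR, featureCounts and DESeq2 were used. Settings, strand use, genome build and annotation are not given in the sources used here, so genes that overlap another or share sequence with a close copy are uncertain. For each sample the authors deposited a signal per gene, which is the read count divided by 1 size factor. All positive values were whole multiples (within 0.01 reads) of the value of 1 read, so whole reads were recovered for 100% of them. Per the file headers, the table also held the authors' log2 fold change and its error (both log2), the Wald score of their test, a p-value and an adjusted p-value.

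Values were analysed as log2(normalized count + 1), for genes whose mean over all samples was 10 or more, with limma 3.58.1 in R 4.3.3 (group as the only term, empirical Bayes with a trend, two-sided, Benjamini-Hochberg over all genes tested, threshold 0.05). Fold changes are on that scale, which understates those of low genes. Single values were compared by exact permutation tests over all 252 ways to divide 10 samples 5 against 5. These leave the pairing out, which the sign-flip tests over same-numbered pairs keep. Alternatives used other pseudocounts, filters and scalings, edgeR 4.0.16 and DESeq2 1.42.0 on the recovered reads, a replicate block, and left-out samples. The limma fit without a block was tested on simulated data drawn without pairs of samples, and the other fits were not.

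Equal replicate numbers were taken to pair samples: both nuclei of a rat were used per the labels, and deviations from the group means correlated with r from 0.12 to 0.44 in the 5 pairs, against a median of -0.205 and a highest value of 0.36 for other pairs, so that the ranges overlapped. No label says that equal numbers mark 1 rat. The p-values measure the spread between these samples. Levels are not compared between genes, since no transcript lengths were used.

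The members and the 16 other gene lists were chosen with earlier results of these data known. All members were named, as were Opn3, Drd1, Drd2, Penk, Tac1 and Bcl11b, and up to 3 genes with the smallest adjusted p under 0.05 from each list, not all of which are described. Gnb5, Meis2, Foxp4, Gpr52, Adora1, Tubb3, Tmem119, Snap25, Syt1, Syn1, the inhibitory neuron genes and single-sample ratios were added after their values had been seen. The same holds for the values of Cnr1, Oprm1, Drd3, Gpr6 and Stmn2. It also holds for the single amygdala, oligodendrocyte, astrocyte and microglial genes compared between shControl replicates. One listed item is not reported here.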

Additional observations from a re-analysis of the deposited data

Results flagged for a closer look

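Of 18 group values examined (9 members in 2 groups), 1 held a sample that stood apart from the other 4 of its group, where about 0.9 would by chance at 1 in 20. In shOpn3 replicate 4, Foxp1 stood at 524.5 normalized counts and the nearest other sample of the group at 414.5, a gap that took up 0.746 of the whole range of the group. The same sample had the highest shOpn3 value of Adora2a (92.7) and the lowest of Pde1b (2027), and the highest sum of microglial genes of all samples (31303). The part of the last in these values was not tested.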

How the results depend on the processing

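Of the 28 alternative fits, 2 that leave out replicates 1 and 5 were chosen after seeing the data. Of the members, Rgs9 was called lower in each of them (log2 fold change -0.69 to -0.54), and Pde1b and Adora2a kept their direction. The 6 members that were not called did so too, except Adcy5 without shControl replicates 1 and 5 (0.04, limma adjusted p = 0.846). The number of genes called was 4726 with the replicate block in limma, 4777 with the replicate block in edgeR and 5085 in limma-voom with sample quality weights, against 2940. Leaving out 1 sample, or both samples of a number, gave 1603 to 3057 genes and 1 to 3 members called. The fewest genes remained called without both samples of replicate 3 (1603) or 2 (1878), or without shOpn3 replicate 3 alone (1973), and 1 member without both samples of replicate 2 or 5, all with fewer samples by construction. The replicate block in limma called 3 members and changed the call of none. In edgeR with the replicate block 4 were called, with Adcy5 added. Without shControl replicates 1 and 5, 3 members were called, 2 of them higher, and without both samples of these numbers 2 were. In that last fit Pde1b had a log2 fold change of 0.31 (limma adjusted p = 0.0803) and Adora2a of -0.40 (0.150), and in the one before Adora2a had -0.55 (0.0564). Adora2a, with the fewest reads, is the least precise of the called members.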

Other observations

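Genes of other forebrain neurons were read from the same fit. Of 4 genes of cholinergic neurons, listed for striatal interneurons, 0 were called by limma, and 0 had an unadjusted p under 0.05. No value here ties these genes to the striatum. Their summed normalized counts ran from 524 to 2671 in shControl and from 469 to 3380 in shOpn3, a wide spread within both groups, with shControl replicate 5 and shOpn3 replicate 4 at the low ends. The 3 genes Gad1, Gad2 and Slc32a1 of inhibitory neurons were not called either, with log2 fold changes of 0.47, 0.31 and 0.16 (adjusted p = 0.140, 0.335 and 0.704 in limma). Gad1 was called higher by DESeq2 over all samples (0.53, adjusted p = 0.0456), without shOpn3 replicate 4 (0.66, adjusted p = 0.00887 in limma) and without both samples of replicate 4 (0.70, 0.0144). Of 5 genes of cortical projection neurons 3 were higher, namely Slc17a7, Neurod6 and Neurod2, against 10.4% of all genes tested. Slc17a7, a vesicular glutamate transporter of the cortex and amygdala, rose from 196 ± 138 to 1217 ± 564 normalized counts (mean ± SD, n = 5 each), a log2 difference of 2.88 ± 0.528 (SE; adjusted p = 0.00285 in limma). The calls of Neurod6 and Neurod2 were lost without both samples of replicate 3 (log2 fold change 1.68 and 1.97, adjusted p = 0.0697 and 0.0807 in limma).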
